A study of Mus musculus with 12 samples.

Results

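Rab proteins are small GTPases that switch between a GTP-bound form on membranes and a GDP-bound form in the cytosol. Each member sits on its own set of organelles and recruits the tethers, motors and fusion factors that move vesicles there. In microglia, the resident macrophages of the brain, this traffic carries receptors to the surface and engulfed material through phagosomes to lysosomes. Acetylation of lysine 27 on histone H3 (H3K27ac) marks active promoters and enhancers, and it was measured here at the genes that encode these proteins.

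The members were all genes whose name in the deposited annotation was Rab followed by a number and, where present, a letter and a further digit. This gave 54 genes out of 16092 with at least 1 window, and they held 201 of the 67822 windows of 1000 bp. Of the Rab windows, 193 lay within 100 kb of the gene's transcription start site and 69, at 46 genes, lay within 1 kb of it and are called promoter windows. The other 8 lay farther away, near Rab11a and Rab2a, and were left out. The 2 windows nearest the limit on its inner side were at 97984 and 49557 bp from Rab11a, and the nearest on its outer side were at 104480 and 106490 bp from Rab2a. All 4 held few tags. The Rab11a window at 97984 bp had 1, 0 and 0 in knockout libraries, against 0, 4 and 0 in wild-type libraries, and the Rab2a window at 104480 bp had 1, 0 and 5 in knockout libraries, against 0, 0 and 13 in wild-type libraries.

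The libraries came from CD11b-positive cells isolated with magnetic beads from mouse forebrain. The 4 groups of 3 libraries were H3K27ac chromatin immunoprecipitation from Nlrp3 knockout mice, the same from wild-type mice, and the input chromatin of the knockout and of the wild type. Per the series' design text, the knockout is the Cias1 allele named Nlrp3-/- (Millennium Pharmaceuticals) and the wild type has a C57BL/6N background. The sources used here give neither the age and sex of the mice nor the background strain of the knockout. NLRP3 is the sensor of an inflammasome, and the series title names glutamine use regulated by NLRP3 in Alzheimer's disease microglia. The labels do not say whether the 3 libraries of a group came from separate animals, so p-values may measure technical spread only.

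The H3K27ac libraries held 3726550 to 5028129 tags and the input libraries 3287009 to 6961590. The 2 promoter windows of Nlrp3 held 3.97, 3.98 and 11.98 CPM (tags scaled to the same total number of tags in every library) in knockout libraries, against 85.3, 60.3 and 74.2 in wild-type libraries. These values went with the genotype labels (log2 difference -3.40, SE 0.35, edgeR adjusted p = 1.58e-05). In 3 promoter windows of the Y chromosome, knockout libraries held 206, 183 and 239 tags, and wild-type libraries held 0, 230 and 199. Wild-type replicate 1 therefore stood apart, so the libraries may not share 1 sex, and the tests were repeated without it. Among the Rab genes this touches X-linked Rab9 and Rab33a, where its part in the values was not tested. All 10 microglia markers had a promoter window. Their median H3K27ac level over input was 13.8 in knockout (range 2.89 to 26.4) and 9.86 in wild-type cells (range 3.07 to 22.8). Of 32 markers of neurons, glia, vessels and other blood cells, 7 had a promoter window. Their median level over input was 1.36 in knockout (range 0.833 to 5.31) and 1.44 in wild-type cells (range 0.989 to 3.78). The ranges of the 2 marker sets thus overlapped in both genotypes. In such bulk material, fewer cells with the mark and less of it in each cell cannot be told apart.

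Most Rab promoters carried H3K27ac well above input in both genotypes. Levels between genes are given as CPM per 1 kb promoter window, and the level over input is the ratio of group means after adding 0.5 to both. The median Rab promoter stood 8.30 times over input in knockout cells and 6.49 times in wild-type cells, beside 5.42 times in knockout and 4.96 times in wild-type cells for all 11591 genes with a promoter window. At least 2 times over input in both genotypes were 34 of 46 Rab promoters (73.9%), a share close to the 74.4% of all promoters. In edgeR's quasi-likelihood test over 12 libraries, 34 Rab promoters passed the filter on low counts. Of these, 33 were called higher than input in knockout libraries at an adjusted p under 0.05, where 95.3% of all 9190 promoters tested were called, and 32 were called in wild-type libraries, where 93.3% were. These shares are near the background. They depend on the filter, since a promoter could pass it through its H3K27ac libraries alone, and promoters low in all libraries were not tested. Without the filter, 33 of 46 Rab promoters were called in knockout libraries, beside 8931 of all 11591. In wild-type libraries 34 of 46 were called, beside 8639 of 11591. Rab37, a GTPase of secretory granules, was called in neither genotype, and Rab42 was not called in wild-type cells (adjusted p = 0.0668, edgeR).

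**Figure D1:**
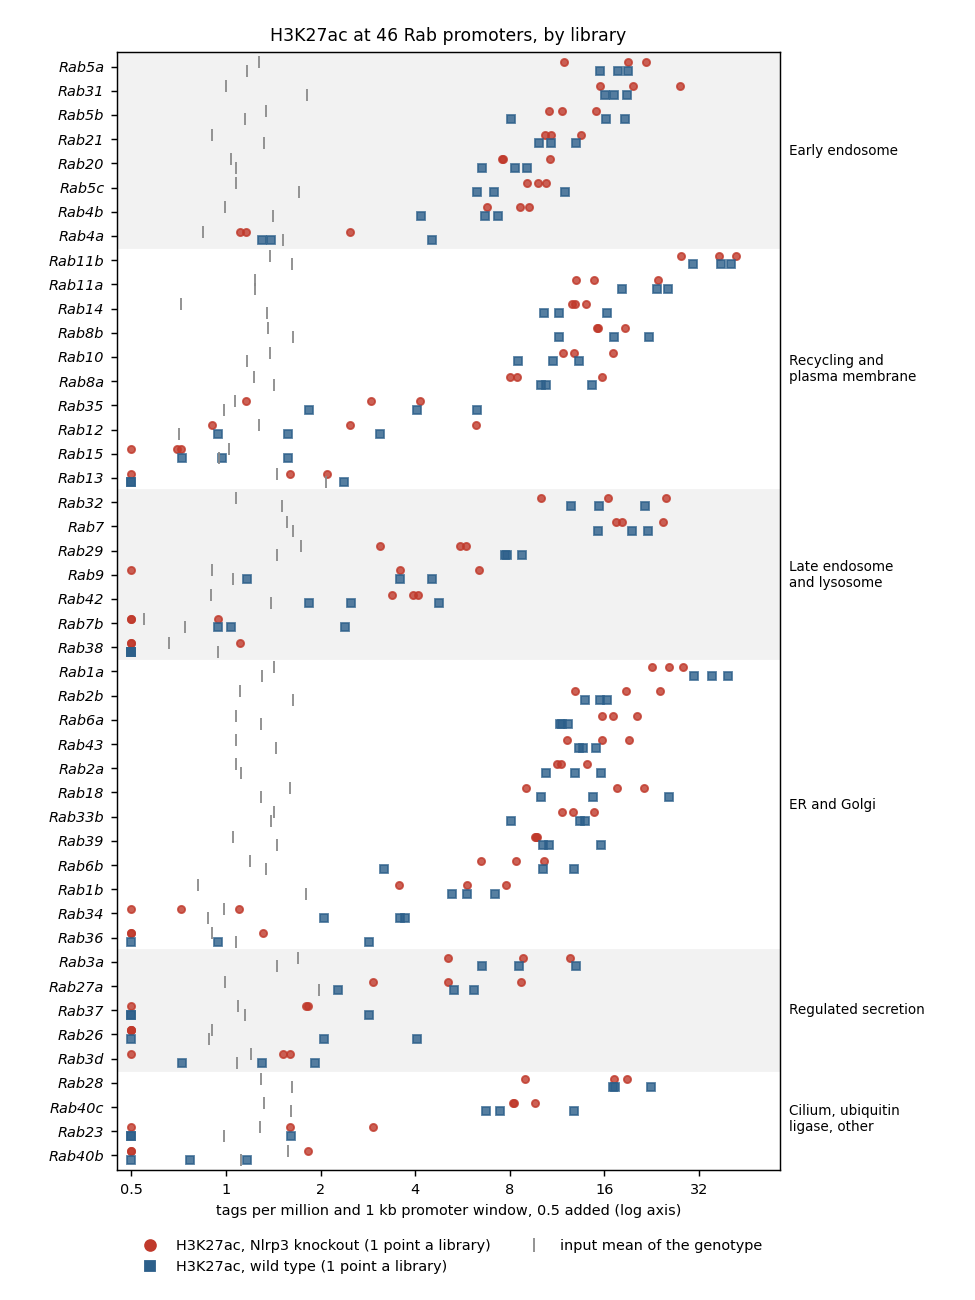
H3K27ac at the 46 Rab promoters, in CPM per 1 kb promoter window with 0.5 added, on a log axis. Circles are the 3 knockout libraries, squares the 3 wild-type libraries and grey ticks the input mean of each genotype, and genes are grouped by the compartment they are best known for. Rab11b and Rab1a stand at the right, and Rab38 and Rab40b lie among the input ticks in most libraries.

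Among regulators of the recycling endosome, which returns receptors to the surface, Rab11b and Rab11a stood high. Rab11b had 41.5, 36.6 and 27.6 CPM per window in knockout libraries, against 37.0, 30.1 and 39.9 in wild-type libraries. Its input libraries held 0.600 to 1.17 in knockout and 0.530 to 1.83 in wild-type material. The 2 genotypes overlapped, and the promoter was above 98.9% of all promoters by level in knockout and 98.8% in wild-type cells. The promoter exceeded input by 5.28 on the log2 scale in knockout cells (SE 0.35, adjusted p = 2.45e-17, edgeR) and by 5.05 in wild-type cells (SE 0.35, adjusted p = 8.63e-17). Rab11a had 23.2, 14.3 and 12.5 in knockout libraries, against 23.1, 25.0 and 17.7 in wild-type libraries, with overlap. Their relative Rab25, known for epithelial cells, had no promoter window, and its single window at 2937 bp stood 1.93 times over input in knockout and 1.73 times in wild-type cells. Rab11b shares its start region with Gm17251, 628 bp away on the other strand, so its promoter tags cannot be given to 1 of them.

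The endoplasmic reticulum and Golgi group held the other leading promoter. Rab1a, which carries vesicles from the endoplasmic reticulum to the Golgi, had 27.9, 25.2 and 22.2 CPM per window in knockout libraries, against 30.5, 34.8 and 39.1 in wild-type libraries. All 3 knockout libraries were below all 3 wild-type libraries at this promoter. For promoters and single windows, here and below, the share of all without overlap was not computed. For windows within 100 kb summed per gene it was 9.63% of 12148 genes. Rab1b, a close relative of Rab1a, had 7.28, 5.37 and 3.05 in knockout libraries, against 5.37, 6.68 and 4.73 in wild-type libraries. The 2 genotypes overlapped at Rab1b, and in each genotype every Rab1a library was above every Rab1b library.

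Promoter sequence was read for the members that mark this range, and for a pair of relatives with unequal levels, Rab40c and Rab40b. The stretches below are the 250 bases before the annotated start, 5′ to 3′ on the gene's strand, from RefSeq on GRCm38.p6. Capitals mark matches on either strand. The GC box bound by SP and KLF factors was searched as GGGCGG and the NF-Y box as CCAAT. The PU.1 core was searched as GAGGAAG and the core of other ETS factors as CCGGAAG. An E-box was searched as CACGTG and a cAMP response element as TGACGTCA. NRF1 was searched as GCGCATGC and the TATA box as TATAAA. Where 2 matches overlap, the capitals run on.
Rab1a, chr11:20201162-20201411, + strand: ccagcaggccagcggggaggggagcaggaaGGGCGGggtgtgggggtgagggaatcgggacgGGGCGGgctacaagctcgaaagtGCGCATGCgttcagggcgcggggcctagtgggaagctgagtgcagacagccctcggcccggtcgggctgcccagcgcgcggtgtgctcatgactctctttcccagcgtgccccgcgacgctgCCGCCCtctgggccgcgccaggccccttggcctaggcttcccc
Rab11b, chr17:33760487-33760736, - strand: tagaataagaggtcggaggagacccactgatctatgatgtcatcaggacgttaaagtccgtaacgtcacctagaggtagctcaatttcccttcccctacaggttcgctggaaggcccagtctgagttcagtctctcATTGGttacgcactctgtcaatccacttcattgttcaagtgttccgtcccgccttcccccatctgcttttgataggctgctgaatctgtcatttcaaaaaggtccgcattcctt
Rab11a, chr9:64737757-64738006, - strand: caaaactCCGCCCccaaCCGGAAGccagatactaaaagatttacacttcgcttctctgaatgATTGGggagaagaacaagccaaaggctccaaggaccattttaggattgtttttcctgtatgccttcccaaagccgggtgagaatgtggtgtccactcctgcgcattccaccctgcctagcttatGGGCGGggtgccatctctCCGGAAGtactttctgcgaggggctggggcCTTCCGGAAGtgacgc
Rab31, chr17:65772753-65773002, - strand: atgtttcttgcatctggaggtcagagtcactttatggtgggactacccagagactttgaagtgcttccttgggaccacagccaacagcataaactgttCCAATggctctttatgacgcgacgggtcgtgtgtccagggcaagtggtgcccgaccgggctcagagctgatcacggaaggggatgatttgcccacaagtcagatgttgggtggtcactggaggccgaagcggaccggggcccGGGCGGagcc
Rab32, chr10:10558208-10558457, - strand: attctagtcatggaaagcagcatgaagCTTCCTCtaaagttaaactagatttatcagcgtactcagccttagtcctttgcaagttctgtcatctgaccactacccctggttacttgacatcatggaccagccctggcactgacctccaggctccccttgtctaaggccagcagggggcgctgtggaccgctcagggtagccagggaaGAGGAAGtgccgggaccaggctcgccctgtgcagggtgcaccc
Rab40c, chr17:25919715-25919964, - strand: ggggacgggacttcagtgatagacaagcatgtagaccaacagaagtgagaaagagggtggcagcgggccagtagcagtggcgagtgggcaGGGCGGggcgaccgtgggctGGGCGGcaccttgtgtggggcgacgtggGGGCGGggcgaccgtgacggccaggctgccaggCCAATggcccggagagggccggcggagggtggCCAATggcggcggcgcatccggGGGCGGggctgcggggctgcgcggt
Rab40b, chr11:121388252-121388501, - strand: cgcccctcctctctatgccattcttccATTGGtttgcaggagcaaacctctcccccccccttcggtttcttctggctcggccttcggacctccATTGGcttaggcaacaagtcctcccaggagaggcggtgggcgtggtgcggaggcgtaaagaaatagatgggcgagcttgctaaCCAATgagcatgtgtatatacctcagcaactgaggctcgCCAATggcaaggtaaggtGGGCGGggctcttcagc

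The 2 highest promoters did not share their letters. Rab1a held GC boxes beginning 220, 188 and 43 bases before the start and an NRF1 match at 165 bases, and Rab11b held 1 CCAAT box, at 114 bases on the opposite strand. Rab11a held 4 ETS cores, of which 2 overlap 16 and 13 bases before the start. Rab32 held 2 PU.1 cores, 223 and 43 bases before the start, and neither a GC box nor a CCAAT box. Rab40c and Rab40b both held GC boxes and CCAAT boxes, while their H3K27ac levels lay far apart.

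Promoter sequence was at hand for 38 of the 46 Rab genes with a promoter window. For each of them the start read was the one nearest the middle of its promoter window with most H3K27ac. The set of all promoters was not chosen by H3K27ac. How far this choice moved the Rab values beside those of the comparison sets was not tested. Rab2a, Rab4a, Rab7b, Rab18, Rab26, Rab36, Rab37 and Rab38 are named only. Within the 250 bases a GC box was in 29 of the 38 (76.3%), beside 58.02% of the 11578 promoters of genes with a promoter window and 32.7% of all 32851 promoters. CCAAT was in 20 (52.6%), beside 35.3% and 33.85% over the same promoter sets. GAGGAAG was in 5 (13.2%), beside 10.8% and 10.6%. CCGGAAG was in 2 (5.26%), beside 13.2% and 6.91%, and CACGTG in 4 (10.5%), beside 8.44% and 6.02%. TATAAA was in 2 (5.26%), beside 6.05% and 12.4%, GCGCATGC in 2 (5.26%), beside 4.40% and 2.26%, and TGACGTCA in 1, at Rab5a (2.63%), beside 2.71% and 1.55%. These are matches of letters in 250 bases and not shown binding. The ratio of observed to expected CpG had a median of 0.754 at Rab promoters, 0.721 at promoters of genes with a promoter window and 0.374 at all promoters. Across the 38 Rab promoters it had a Spearman rho of 0.24 with the level over input, where the points share libraries and base composition.

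Early endosome members with a promoter window were acetylated in both genotypes, with 1 weak promoter. Rab17 of this group had no promoter window, and its distal windows stood 1.34 times over input in knockout and 1.09 times in wild-type cells. Rab5a, which drives fusion of early endosomes, had 21.3, 18.6 and 11.4 CPM per window in knockout libraries, against 15.03, 18.5 and 17.3 in wild-type libraries. Rab5b had 14.6, 10.1 and 11.3 in knockout libraries, against 15.7, 7.57 and 18.1 in wild-type libraries. Rab5c had 8.61, 9.35 and 9.95 in knockout libraries, against 11.5, 5.79 and 6.62 in wild-type libraries. All 3 Rab5 genes overlapped between genotypes, and Rab5a libraries were above every Rab5c library in wild-type cells and in knockout cells. Rab31, which moves cargo between the Golgi and endosomes and is found on phagosomes, had 19.2, 27.4 and 15.02 in knockout libraries, against 15.6, 16.7 and 18.4 in wild-type libraries. Rab21, a regulator of integrin traffic, averaged 11.1 ± 1.71 in knockout and 10.8 ± 1.56 in wild-type libraries (SD, n = 3 each). Rab20, a phagosomal GTPase of macrophages, averaged 8.14 ± 1.82 in knockout and 7.46 ± 1.32 in wild-type libraries (SD, n = 3 each). Rab20 starts 711 bp from E230013L22Rik on the other strand. The pair of fast recycling genes was unequal. Rab4b had 8.72, 8.15 and 6.29 in knockout libraries, against 6.17, 3.67 and 6.85 in wild-type libraries, and Rab4a had 0.662, 1.99 and 0.609 in knockout libraries, against 0.805, 0.890 and 4.02 in wild-type libraries. Rab4b stood 8.27 times over input in knockout and 4.30 times in wild-type cells, and Rab4a 1.88 times in knockout and 1.58 times in wild-type cells.

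By promoter level, the other recycling and surface delivery genes split into a high and a low set. Rab8b and Rab8a, which guide exocytic vesicles to the plasma membrane, averaged 15.9 ± 1.96 and 10.2 ± 4.33 CPM per window in knockout libraries, and 16.5 ± 5.33 and 11.2 ± 2.56 in wild-type libraries. Rab10, which delivers the receptor TLR4 to the macrophage surface, averaged 13.4 ± 2.80 in knockout and 10.4 ± 2.37 in wild-type libraries. Rab14, of the endosome to Golgi route, averaged 12.7 ± 0.706 in knockout and 12.2 ± 3.19 in wild-type libraries (SD, n = 3 for each mean). These 4 promoters were 8.25 to 18.2 times over input in both genotypes. The promoters of Rab35, Rab12, Rab15 and Rab13 lay between 0.542 and 4.12 times over input. Distal windows held 86.5% ± 9.5 of Rab35 tags in knockout and 76.8% ± 5.0 in wild-type libraries (SD, n = 3 each). Its window at 3714 bp stood 5.12 times over input in knockout and 4.94 times in wild-type cells. Rab35 starts 171 bp from 1110006O24Rik and Rab15 57 bp from Gm34988, each on the other strand. Rab13, a GTPase of tight junctions, had tags in 2 of 3 knockout libraries and 1 of 3 wild-type libraries, although its start lies 67 bp from that of the ribosomal protein gene Rps27.

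In the late endosome and lysosome group the promoters of Rab7 and Rab32 led. Rab7, which directs fusion of late endosomes and phagosomes with lysosomes, had 17.0, 24.1 and 17.7 CPM per window in knockout libraries, against 14.8, 21.6 and 19.1 in wild-type libraries. Rab7b had 0.441, 0 and 0 in knockout libraries, against 0.537, 0.445 and 1.89 in wild-type libraries, or 1.18 times over input in knockout and 1.97 times in wild-type cells. Rab32, which builds lysosome-related organelles, had 16, 24.7 and 9.54 in knockout libraries, against 14.9, 12.02 and 21.1 in wild-type libraries. Its relative Rab38, which acts with it in pigment cells, had tags in 1 knockout library (0.609) and in no wild-type library. The 2 promoters of each pair were thus far apart in every library, and neither high member separated the genotypes. Rab29, which recruits the kinase LRRK2 to membranes, had 5.30, 2.59 and 5.07 in knockout libraries, against 7.25, 8.24 and 7.32 in wild-type libraries, and the groups did not overlap. The X-linked gene Rab9, of the return route from late endosomes to the Golgi, had 3.09, 0 and 5.89 in knockout libraries, against 4.03, 0.668 and 3.07 in wild-type libraries.

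The remaining Golgi and endoplasmic reticulum genes were mostly high. Rab6a, of transport within and out of the Golgi, had 19.9, 16.5 and 15.2 CPM per window in knockout libraries, against 11.3, 11.8 and 11.1 in wild-type libraries. Every knockout library was above every wild-type library, but the window also covers the start of Mrpl48, 36 bp away. Rab2b averaged 18.1 ± 5.62 in knockout and 14.7 ± 1.21 in wild-type libraries, and Rab2a 11.9 ± 1.49 in knockout and 12.5 ± 2.63 in wild-type libraries (SD, n = 3 each). Both act in return transport from the Golgi, and Rab2b starts 249 bp from Tox4. Rab18 of lipid droplets, Rab33b of autophagosome formation, Rab39, Rab43 and Rab6b were 6.53 to 14.6 times over input in both genotypes. Rab34 and Rab36 were low. Rab34, which links lysosome position to the Golgi, had 1, 3 and 0 tags in knockout libraries, against 12, 7 and 13 in wild-type libraries, and did not pass the filter of the test.

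Genes of regulated secretion had the lowest median among the groups, 1.26 times over input in knockout and 2.32 times in wild-type cells over 5 promoters. Rab3a, known for synaptic vesicles, was the highest of them, at 11.9, 4.57 and 8.32 CPM per window in knockout libraries, against 8.05, 6.01 and 12.5 in wild-type libraries. Rab27a, of lysosome-related granules and exosomes, had 8.17, 4.57 and 2.44 in knockout libraries, against 4.83, 1.78 and 5.67 in wild-type libraries. The groups overlapped at both genes. Rab26 had no tag in any knockout library and 0, 1.56 and 3.54 in wild-type libraries, and Rab3d and Rab37 were 1.00 to 1.26 times over input in both genotypes. In the last group Rab28, a GTPase of cilia, averaged 14.5 ± 5.30 in knockout and 18.4 ± 3.08 in wild-type libraries. Rab40c, a subunit of a ubiquitin ligase, averaged 8.20 ± 0.805 in knockout and 8.498 ± 3.30 in wild-type libraries, and its relative Rab40b 0.441 ± 0.764 in knockout and 0.312 ± 0.336 in wild-type libraries (SD, n = 3 each). Rab23, an inhibitor of Hedgehog signalling, was 1.31 times over input in knockout and 0.887 times in wild-type cells. It starts 50 bp from Gm32229 on the other strand.

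**Figure D2:**
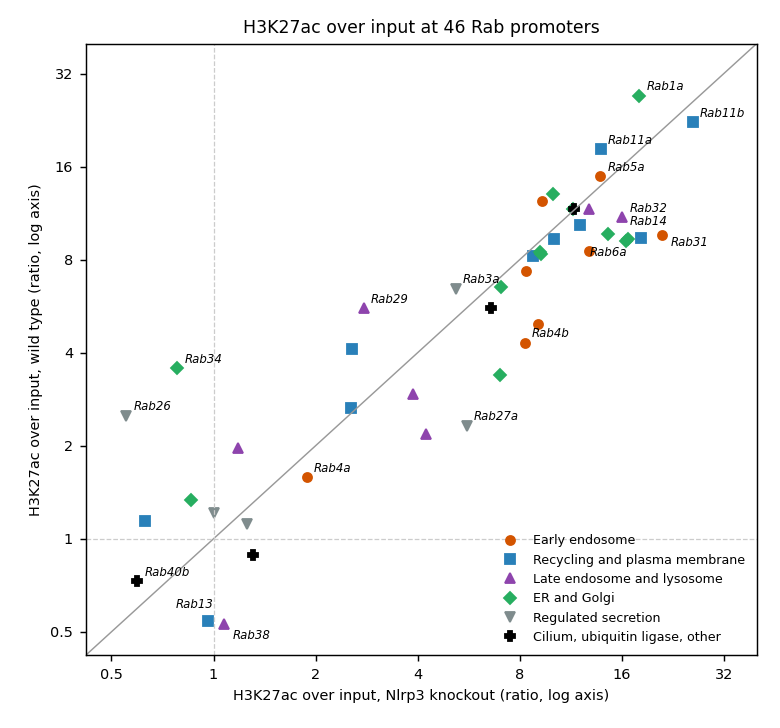
H3K27ac over input at the 46 Rab promoters, as a ratio of group means with 0.5 CPM added, in knockout (horizontal) and wild-type cells (vertical), both on log axes. Symbols give the compartment, the solid line marks equal ratios and the dashed lines a ratio of 1. Rab1a and Rab29 lie above the line, Rab31, Rab14 and Rab6a below it.

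The levels over input in each genotype were set against each other in 1 test. Of 34 Rab promoters tested, 0 were called in edgeR's quasi-likelihood test, as were 0.0% of all 9190 promoters. At an unadjusted p under 0.05 there were 2 Rab promoters and 470 of all (5.11%), and DESeq2 also called 0 and had 2 Rab promoters and 393 of all under 0.05. The 2 were Rab31, with a log2 difference of 1.67 (SE 0.74, adjusted p = 0.929), and Rab2b, with 1.33 (SE 0.60, adjusted p = 0.943). At both, input was lower and mean H3K27ac higher in knockout material, while the H3K27ac libraries of the genotypes overlapped. Mean H3K27ac was 20.6 CPM per window in knockout and 16.9 in wild-type libraries at Rab31, and 18.1 and 14.7 at Rab2b. Rab31 had 0.500 CPM per window in knockout input and 1.31 in wild-type input, and Rab2b 0.609 in knockout input and 1.13 in wild-type input. The median difference over all promoters was 0.19 and over the tested Rab promoters 0.27, and with TMM scaling -0.0048 over all and 0.11 over Rab promoters. With 1 library pair left out the Rab median lay between 0.12, without knockout replicate 3, and 0.54, without knockout replicate 2. With counts this low in the input, the SE of a single promoter's difference ran from 0.42 to 1.37 on the log2 scale.

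Beyond the promoters, 124 Rab windows lay farther than 1 kb from the start. Of these, 69 were within the gene itself, 32 between genes and 23 within another gene. Their median level was 2.97 times over input in knockout and 2.94 times in wild-type cells, beside 2.55 times in knockout and 2.36 times in wild-type cells for all 45885 distal windows. At least 2 times over input in both genotypes were 70 of 124 (56.5%), beside 48.8% of all distal windows. Rab11a, Rab31, Rab14, Rab8b and Rab40c held much of this acetylation away from the start.

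Rab11a had the most windows, 15, and its 13 distal windows held 79.8% ± 6.5 of its tags in knockout and 74.8% ± 4.4 in wild-type libraries (SD, n = 3 each). The window 33643 bp upstream, at chr9:64770899-64771899 between genes, had 26.04, 38.4 and 25.6 CPM in knockout libraries, against 38.4, 30.3 and 43.2 in wild-type libraries. It was above every promoter window of Rab11a on average in both genotypes. A run of 5 windows 33057 to 36092 bp downstream lay in the gene Megf11, so tags there were assigned to Rab11a by distance alone. Its first window, at chr9:64704199-64705199 in an intron of Megf11, had 27.6, 26.7 and 33.3 in knockout libraries, against 26.3, 13.8 and 25.3 in wild-type libraries. The log2 differences were -0.33 and -0.55 at the promoter windows and 0.46, 0.14, 0.51, -0.11 and 0.35 along the Megf11 run (SE 0.25 to 0.43), and none of these was called.

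Rab31 held 84.5% ± 2.7 of its tags in distal windows in knockout and 86.5% ± 1.6 in wild-type libraries. The strongest lay in its first intron, 45834 bp from the start at chr17:65726418-65727418, with 26.7, 22.9 and 21.1 CPM in knockout libraries, against 21.2, 20.5 and 28.1 in wild-type libraries. It was above 95.4% of all windows in knockout and 95.1% in wild-type cells, while the Rab31 promoter window was above 93.7% in knockout and 90.5% in wild-type cells. Rab8b had 19.6, 28.6 and 8.52 at 32697 bp in knockout libraries, against 18.8, 11.6 and 19.8 in wild-type libraries. Rab40c had its highest window in its second intron, 5670 bp from the start at chr17:25913544-25914544, with 33.5, 29.6 and 25.0 in knockout libraries, against 23.1, 19.6 and 32.6 in wild-type libraries. That window was above the Rab40c promoter window in all 6 libraries. Rab6b likewise had its highest window in an intron, at 37174 bp, with 18.3, 10.9 and 14.4 in knockout libraries, against 11.3, 17.8 and 11.6 in wild-type libraries. Rab14 spread 83.1% ± 1.7 of its tags in knockout and 81.3% ± 7.6 in wild-type libraries over 9 distal windows (SD, n = 3 each). The genotypes overlapped at the windows given for Rab31, Rab8b, Rab40c and Rab6b.

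**Figure D3:**
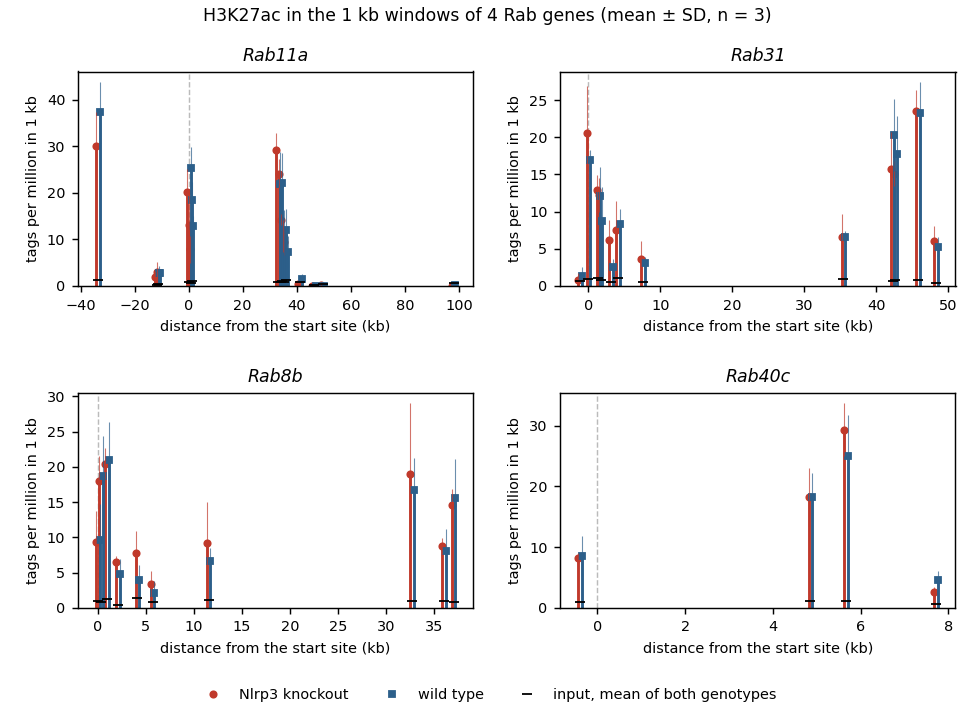
H3K27ac in single 1 kb windows of Rab11a, Rab31, Rab8b and Rab40c, in CPM (mean ± SD of 3 libraries), by distance from the start site in kb, with knockout drawn just left of wild type and black dashes for the input mean of both genotypes. The highest window lies away from the start (dashed line) in Rab11a, Rab31 and Rab40c, and knockout and wild-type bars overlap within their SD at those windows.

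Genes without a promoter window had weak distal windows. Rab24, linked to autophagy, had its window 3406 bp from the start in a neighbouring gene, at 3.04 times over input in knockout and 4.26 times in wild-type cells. X-linked Rab33a, a brain Golgi GTPase, had its highest at 4436 bp, at 3.80 times in knockout and 4.57 times in wild-type cells. Rab17, Rab19, Rab25, Rab30, Rab3b and Rab44 stood at most 2.20 times over input at their highest window in both genotypes. Rab42 had its highest window 2030 bp upstream, at 8.80 times in knockout and 7.73 times in wild-type cells, beside 4.24 times in knockout and 2.18 times in wild-type cells at its promoter.

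Knockout and wild-type H3K27ac were then compared gene by gene, on tags summed over all windows within 100 kb. No Rab gene passed the test in either direction. Of the 54 genes 39 passed the filter on low counts. Rab3b, Rab3d, Rab4a, Rab13, Rab15, Rab17, Rab23, Rab25, Rab26, Rab30, Rab34, Rab36, Rab38, Rab40b and Rab44 did not. edgeR called 0 of 39, beside 0.206% of 12148 genes (25 genes), and DESeq2 called 0 of 39 and 35 of all. At an unadjusted p under 0.05 there was 1 Rab gene in either tool, beside 701 genes in edgeR (5.77%) and 693 in DESeq2. The log2 differences of the 39 ran from -0.80 to 0.73 with a median of 0.07, beside 0.0013 over all genes, and 23 were positive. With 1 library left out the median of the tested Rab genes lay between -0.02, without knockout replicate 2, and 0.12, without wild-type replicate 3. All 3 libraries of 1 genotype were above all 3 of the other at 4 of the 39, beside 9.63% of all genes. The median SE was 0.29, and the difference of every tested member but Rab1a was within 2 SE.

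**Figure D4:**
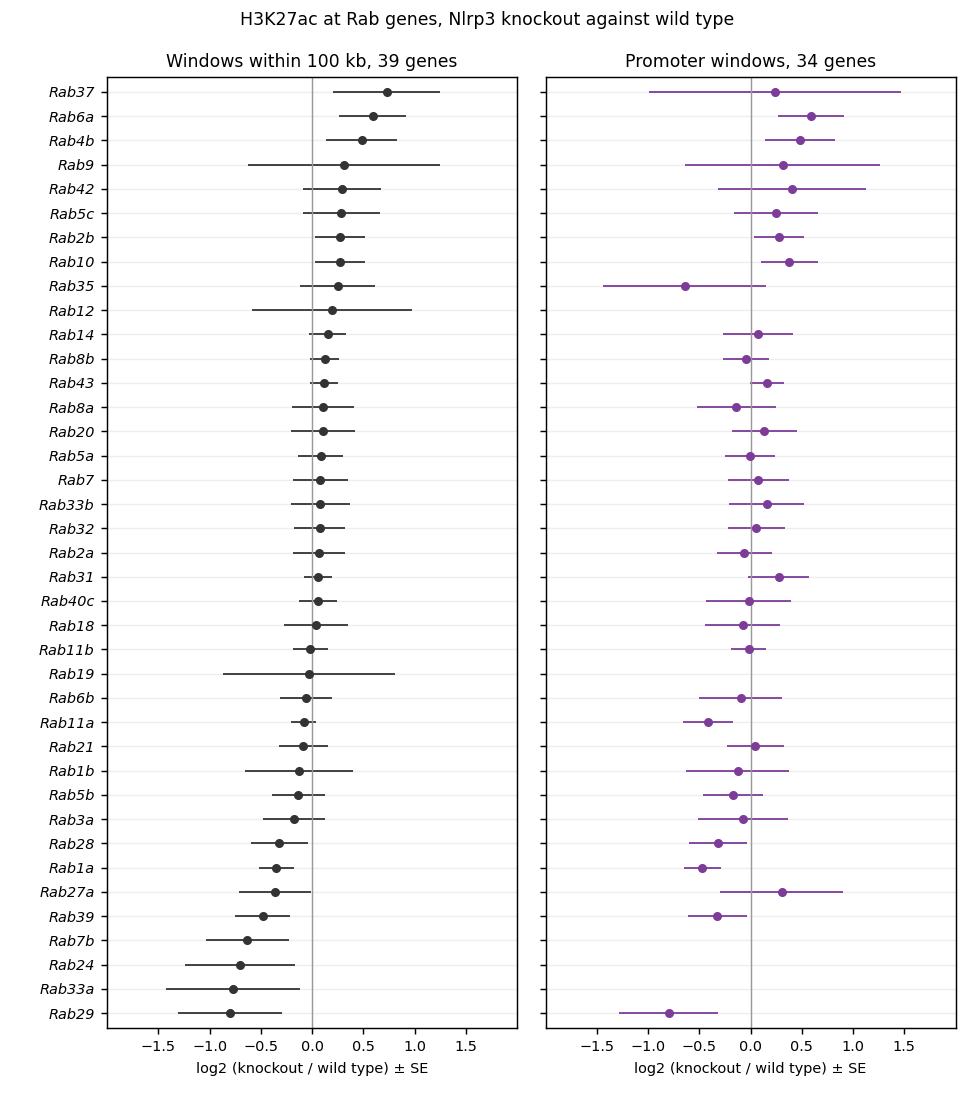
Log2 difference in H3K27ac, knockout over wild type, with its SE from edgeR, for 39 Rab genes over all windows within 100 kb (left) and for 34 Rab promoters (right), in 1 order for both panels. Points run from 0.73 at Rab37 to -0.80 at Rab29 in the left panel, and none passed an adjusted p of 0.05.

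Rab1a had the smallest p. Over its 6 windows it had 71.9, 67.6 and 55.6 CPM in knockout libraries, against 69.2, 83.0 and 95.7 in wild-type libraries. The groups overlapped by 1 library, and the log2 difference was -0.35 (SE 0.17, adjusted p = 0.855, edgeR). At its promoter windows alone the log2 difference was -0.47 (SE 0.18, adjusted p = 1.00).

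Single windows of Rab1a had differences of opposite sign. The promoter window at chr11:20200680-20201680, 232 bp upstream of the start, had 21.4, 10.1 and 10.4 CPM in knockout libraries, against 21.7, 29.2 and 24.8 in wild-type libraries. All knockout libraries were below all wild-type libraries, though knockout replicate 1 lay next to the lowest wild-type library (log2 difference -0.88, SE 0.29, adjusted p = 0.806, edgeR). The window at chr11:20204014-20205014, 3102 bp into the first intron, had 13.2, 14.3 and 9.54 in knockout libraries, against 5.10, 8.46 and 5.20 in wild-type libraries. Here all knockout libraries were above all wild-type libraries (log2 difference 0.95, SE 0.39, adjusted p = 0.998). Distal windows held 22.7% ± 2.77 of Rab1a tags in knockout and 15.5% ± 3.18 in wild-type libraries (SD, n = 3 each). The lowest knockout share, 20.1%, was above the highest wild-type share, 18.3%. The 2 windows above, named for their small p, enter this share, so it is not separate evidence. Among the other tested Rab genes, the shares did not overlap at Rab8a, with knockout higher, and at Rab10 and Rab21, with knockout lower. How many of all genes lack such overlap was not computed. Of the 133 Rab windows tested edgeR called 0, beside 0.0595% of 40370 windows, and these 2 Rab1a windows were the only Rab windows with an unadjusted p under 0.05 in it, beside 1894 of all windows (4.69%). The next by p were windows of Rab31 at 3115 bp (1.21), Rab14 at 10453 bp upstream (0.96), Rab39 at 5606 bp (-1.33), Rab6a at its promoter (0.59) and Rab11a at 1068 bp (-0.72). DESeq2 had 7 Rab windows under 0.05, beside 2697 of all (6.68%), and called 0 of them, beside 68 of all windows.

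**Figure D5:**
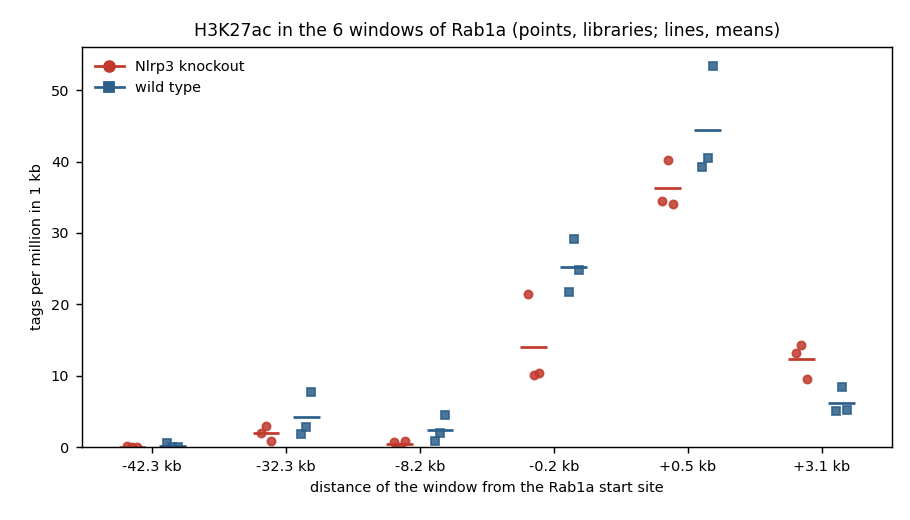
H3K27ac in the 6 windows of Rab1a, in CPM, by library (points) with group means (lines), knockout left of wild type, ordered by distance from the start. Knockout libraries lie below wild-type libraries at -0.2 kb and above them at +3.1 kb, while the strongest window, at +0.5 kb, overlaps.

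Rab6a had 1 window, its promoter, with the values given above. Its log2 difference was 0.59 (SE 0.33, adjusted p = 0.901, edgeR). Rab29, also with 1 window, had a log2 difference of -0.80 (SE 0.51, adjusted p = 0.922), with 24, 13 and 25 tags in knockout libraries, against 27, 37 and 31 in wild-type libraries. Rab39, which acts on the Golgi and in macrophage secretion, had 24.3, 21.3 and 18.7 CPM in knockout libraries, against 37.8, 27.4 and 24.8 in wild-type libraries. Rab7b had 6.18, 5.97 and 10.1 in knockout libraries, against 10.7, 12.5 and 12.05 in wild-type libraries. These were the 4 tested genes without overlap, 1 with knockout higher and 3 with it lower. The log2 difference was -0.48 at Rab39 (SE 0.27, adjusted p = 0.901) and -0.63 at Rab7b (SE 0.41, adjusted p = 0.922). Over all its windows Rab7b stood 1.24 times over input in knockout and 1.61 times in wild-type cells.

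The other named genes overlapped between genotypes. Rab4b (log2 difference 0.48, SE 0.35), Rab37 (0.73, SE 0.53), Rab2b (0.27, SE 0.25), Rab10 (0.27, SE 0.25) and Rab8b (0.12, SE 0.14) had positive differences, with adjusted p from 0.931 to 0.974. The difference of Rab37 was 0.18 without knockout replicate 3. Rab24 (-0.70, SE 0.54), Rab33a (-0.77, SE 0.65) and Rab28 (-0.32, SE 0.28) had negative ones, with adjusted p from 0.938 to 0.961. Rab33a had 11, 29 and 9 tags in knockout libraries, against 13, 11 and 48 in wild-type libraries, and its difference was 0.14 without wild-type replicate 3 and -1.03 without wild-type replicate 1. Of the genes that stand for a compartment, Rab5a (0.08, SE 0.22), Rab5c (0.29, SE 0.38), Rab31 (0.06, SE 0.13), Rab7 (0.08, SE 0.26), Rab32 (0.07, SE 0.25), Rab11a (-0.08, SE 0.12), Rab8a (0.11, SE 0.30), Rab27a (-0.37, SE 0.35) and Rab3a (-0.17, SE 0.30) gave adjusted p from 0.967 to 0.997. The genes with most tags had the smallest SE, from 0.12 to 0.14 at Rab11a, Rab31, Rab43 and Rab8b. Each of these has windows that overlap, so some tags were counted more than once, and the effect on the SE was not tested.

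At promoters alone edgeR called 0 of 34 Rab genes, beside 0.0109% of 9139 genes, the 1 called gene being Nlrp3. DESeq2 called 0 of 34 and 7 of all, and in each tool 1 Rab promoter, Rab1a in edgeR, had an unadjusted p under 0.05, beside 435 and 430 of all. The median log2 difference of the 34 was 0.02, beside -4.1e-05 over all promoters. After Rab1a came Rab6a (0.59, SE 0.32), Rab11a (-0.42, SE 0.24), Rab29 (-0.80, SE 0.48), Rab4b (0.48, SE 0.34) and Rab10 (0.38, SE 0.28), with unadjusted p from 0.0802 to 0.182. Without any 1 library, and without wild-type replicate 1 in particular, still 0 Rab genes, promoters or windows were called.

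By compartment, the medians of the Rab genes lay between -0.17 and 0.14. The median log2 difference was 0.08 over 7 tested early endosome genes, 0.14 over 8 recycling genes, 0.07 over 7 late endosome and lysosome genes, 0.0043 over 12 endoplasmic reticulum and Golgi genes, -0.17 over 3 secretion genes and -0.13 over 2 others. Regulators of the family were listed as well. GDIs, which extract Rabs from membranes, with escorts and prenylation enzymes had 0 of 6 tested genes called. Exchange factors (GEFs) had 0 of 29, GTPase-activating proteins (GAPs) 0 of 31 and effectors 0 of 37. The kinases and phosphatase of Rabs had 0 of 2, Lrrk1 and Ppm1h. The listed kinase Lrrk2 had no window within 100 kb and was not tested. Median log2 differences of these lists were 0.0042, -0.0078, 0.04, -0.06 and 0.17 in that order. An unadjusted p under 0.05 in edgeR was reached by 3 of 29 GEFs, 2 of 31 GAPs and 2 of 37 effectors, beside 5.77% of all genes. The GEFs were Rab3il1 (-0.41, SE 0.17), Dennd6a (-0.46, SE 0.21) and Rabgef1, which activates Rab5 (-0.35, SE 0.16). The GAPs were Rabgap1 (0.74, SE 0.32) and Tbc1d25 (-0.78, SE 0.35), and the effectors Micall1 (1.22, SE 0.47) and Ehbp1 (1.85, SE 0.85).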

How the data were processed

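Tags of 12 libraries in windows of 1000 bp were used as the authors deposited them, as raw counts. Per the file headers, the counts were made with HOMER's annotatePeaks.pl on mm10 without adjustment, in windows centred on merged accessible sites, and each window was assigned to its nearest start site. HOMER, DESeq2 and the mm10 build are listed in the submitters' processing notes. The aligner and the handling of duplicates were not given in the sources used here. The windows held 39.1 to 46.1% of the tags of the H3K27ac libraries, and the rest was not used here. In all, 39 Rab windows overlap the one before them, so they share tags. Such tags enter the sums per gene and the distal shares more than once.

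Counts were summed per gene within 100000 bp of the start and within 1000 bp, and fitted over all genes with edgeR 4.0.16 in R 4.3.3 (filterByExpr, quasi-likelihood, Benjamini-Hochberg, threshold 0.05). Knockout against wild type used 3 against 3 H3K27ac libraries with TMM scaling. H3K27ac against input used all 12 libraries and total tags as library sizes. Levels are CPM, tags scaled to all tags of a library. SE is the log2 difference over the square root of F. DESeq2 1.42.0, other scalings, filters and limits, the replicate block and leaving out each library were alternatives. Replicates of a group differed by more than counting noise, with a chi-square per degree of freedom of at least 3.67 in H3K27ac and 1.24 in input libraries.

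The members, gene lists and tests were chosen with earlier results of these data known. Named in the text were the Rab genes, promoters and windows of smallest p in each direction, 12 genes fixed for their roles, the highest and lowest promoters and the relatives of each. The fits were tested on simulated data. No molecular identifiers are described, so all errors from counts cover counting error and the spread between libraries only.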

Additional observations from a re-analysis of the deposited data

How the results depend on the processing

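Under every setting tried, 0 Rab genes, promoters or windows were called between genotypes. Over all genes, the 25 called within 100 kb became 16 with total-tag scaling, 48 without the filter, 11 within 10000 bp and 8 to 18 with 1 library left out, fewest without wild-type replicate 1. The 1 called promoter became 7 with DESeq2, 8 without the filter, 5 within 2000 bp and 1 to 5 with 1 library left out. The 24 called windows became 68 with DESeq2, 68 without the filter and 10 to 29 with 1 library left out. With the replicate block, 15 genes, 3 promoters and 21 windows were called, and 8679 and 8454 promoters over input in knockout and wild type (32 Rab each). Libraries of the same number did not deviate together (correlations of 0.0053, 0.024 and 0.0028 between genotypes), so the main fits did not take the numbers to pair samples. Between H3K27ac and input they were -0.0019, 0.0040 and 0.0079 in knockout and 0.014, -0.0025 and -0.0029 in wild type. Counts in the input were low, so these cannot show whether H3K27ac and input libraries are paired. A library pair left out was the H3K27ac and input library of 1 number, by label alone. With TMM scaling, which centres the median promoter, 1091 promoters and 7 Rab promoters were called over input in knockout, and 1125 and 4 in wild type. With 1 library pair left out, 32 to 33 and 30 to 34 Rab promoters were called over input, of 8244 to 8922 and 8071 to 8640. The median Rab level over input, 8.30 in knockout and 6.49 in wild type, was 12.6 and 8.70 with 0.1 CPM added, 5.89 and 5.04 with 1 CPM added, 6.997 and 5.61 within 2000 bp, and 7.68 to 8.55 and 5.86 to 7.73 without 1 replicate number, an alternative chosen after seeing the data.

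Of 508 alternatives for 45 named differences, 20 changed sign, in 12 of the 45, none of which was called, and the cause was not tested. Within 100 kb, leaving out 1 library gave ranges of -1.37 to 0.14 for Rab33a (highest without wild-type replicate 3), -0.012 to 0.16 for Rab31, -0.12 to 0.24 for Rab7, -0.29 to 0.27 for Rab32, -0.18 to 0.0040 for Rab11a and -0.16 to 0.37 for Rab8a. At promoters they were -0.16 to 0.16 for Rab5a, which was 0.012 with total-tag scaling, -0.070 to 0.26 for Rab7, -0.29 to 0.29 for Rab32, -0.48 to 0.037 for Rab8a, -0.17 to 0.59 for Rab27a and -0.37 to 0.24 for Rab3a. The 12 Rab promoters below the filter were tested only without it, where 3 of 46 Rab promoters had an unadjusted p under 0.05 in edgeR and 0 were called.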
